A study of Drosophila melanogaster with 3 samples.

Results

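The large subunit of the cytosolic ribosome is built in Drosophila melanogaster from ribosomal RNA and the proteins of the RpL genes. Every protein-coding gene of the Ensembl annotation whose symbol begins with RpL followed by a digit or by P, and does not end in -like, was taken as a member. This gave 50 of 13945 protein-coding genes on 6 chromosome arms, of which 12 lie on 2L, 10 on 3L, 10 on 3R, 6 on X, 12 on 2R and 0 on 4. The members were chosen by name and annotation, and no binding value entered the choice.

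Binding of a GFP-tagged protein was measured by chromatin immunoprecipitation and sequencing (ChIP-seq) in whole embryos of both sexes pooled, aged 0 to 24 h, with an antibody against GFP. All samples came from 1 transgenic line, and 3 biological replicates, numbered 1, 2 and 4, formed the single group; samples with another treatment or genotype, or without the tag, were not used here. The labels contradict each other on which protein carries the tag, since some of their fields give CG18619, another name of REPTOR-BP, while others give REPTOR with GFP at its C-terminus, so the text says the tagged protein. The line carries the fusion as a transgene, and an embryo of this age range mixes all cell types, so binding in a few cells and weak binding in many cannot be told apart.

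Ribosomal protein genes are among the most strongly and evenly transcribed genes of growing cells, and their output is matched to nutrient supply. TORC1, a kinase complex that senses amino acids and energy, promotes the making of ribosomes. REPTOR and REPTOR-BP are partner transcription factors of the basic leucine zipper (bZIP) class that act when TORC1 is inhibited. In Drosophila most ribosomal protein genes begin at a polypyrimidine initiator, the TCT motif, rather than at the usual initiator, and many carry sites for Motif 1 or for the DNA replication-related element (DRE), which the factor DREF binds.

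The promoters that the results turn on are printed here so that the start site, the initiator and the listed sites can be seen together. They are the coding strand, 5′ to 3′, of the RefSeq sequence of the dm6 build, and run from position -170 to position 12, where the start site is base 1. Where a gene has several start sites, the one nearest to the summit was used, or the outermost one in genes without a peak. The window of RpL7 begins at position -29 and that of RpL14 at position -126, because an exon of a neighbouring gene lies there. Capitals mark exact matches on either strand to the DRE (TATCGATA, or its core ATCGAT), the core of Motif 1 (GGTCACAC), the E-box (CACGTG), the TATA box (TATAAA) and the bZIP core TGACG. Capitals also mark, on the coding strand within 5 bp of the start site, the TCT spellings TCTTTT or TCTTTC and, as further spellings, CCTTTT or CCTTTC.

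The first 6 belong to the genes of highest signal among the promoters shown. RpL7 (chr2L:10200975-10201015, plus strand), RpL23A (chr3L:1668643-1668824, minus strand), RpL14 (chr3L:8600880-8601017, plus strand), RpL34b (chr3R:9401215-9401396, minus strand), RpL13A (chr3R:5624304-5624485, plus strand) and RpL28 (chr3L:3222949-3223130, minus strand) read as follows.
RpL7: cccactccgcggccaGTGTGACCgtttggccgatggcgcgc
RpL23A: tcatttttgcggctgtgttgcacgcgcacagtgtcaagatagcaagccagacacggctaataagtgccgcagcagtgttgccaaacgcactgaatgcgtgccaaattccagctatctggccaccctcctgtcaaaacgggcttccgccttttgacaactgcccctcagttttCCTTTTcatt
RpL14: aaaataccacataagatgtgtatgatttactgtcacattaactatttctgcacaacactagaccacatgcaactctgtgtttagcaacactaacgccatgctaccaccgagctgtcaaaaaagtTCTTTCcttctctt
RpL34b: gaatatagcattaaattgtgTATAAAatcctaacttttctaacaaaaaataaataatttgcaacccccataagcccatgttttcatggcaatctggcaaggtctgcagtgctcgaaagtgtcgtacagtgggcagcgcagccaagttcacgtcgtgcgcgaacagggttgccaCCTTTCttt
RpL13A: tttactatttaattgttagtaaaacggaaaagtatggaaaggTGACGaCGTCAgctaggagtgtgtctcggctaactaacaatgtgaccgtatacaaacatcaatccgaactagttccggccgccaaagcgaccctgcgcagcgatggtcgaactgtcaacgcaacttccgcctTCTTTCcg
RpL28: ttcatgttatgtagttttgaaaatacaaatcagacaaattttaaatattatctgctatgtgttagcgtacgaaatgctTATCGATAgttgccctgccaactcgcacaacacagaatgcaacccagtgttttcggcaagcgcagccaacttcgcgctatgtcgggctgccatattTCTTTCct

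The next 3 are members of paralog pairs and differ in their peaks. RpL34a (chr3R:26059256-26059437, minus strand) and RpL10Ab (chr3L:11822681-11822862, plus strand) had a peak, and RpL10Aa (chr3R:15037196-15037377, plus strand) had none.
RpL34a: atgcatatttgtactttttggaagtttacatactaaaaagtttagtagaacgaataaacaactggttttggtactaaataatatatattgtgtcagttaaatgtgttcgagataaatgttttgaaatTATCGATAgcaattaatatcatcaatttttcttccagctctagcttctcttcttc
RpL10Ab: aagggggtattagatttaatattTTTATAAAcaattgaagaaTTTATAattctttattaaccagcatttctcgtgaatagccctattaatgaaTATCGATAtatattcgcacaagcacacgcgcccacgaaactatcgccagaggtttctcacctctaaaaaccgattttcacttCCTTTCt
RpL10Aa: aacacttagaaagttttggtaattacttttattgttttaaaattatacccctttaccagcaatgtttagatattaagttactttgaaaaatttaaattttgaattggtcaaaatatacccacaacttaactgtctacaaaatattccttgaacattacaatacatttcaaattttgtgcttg

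The last 3 are members outside the paralog pairs without a peak in the authors' optimal list, namely RpL6 (chr3R:31596193-31596374, minus strand), RpL40 (chr2L:4227529-4227710, plus strand) and RpL21 (chr2L:22247864-22248045, minus strand).
RpL6: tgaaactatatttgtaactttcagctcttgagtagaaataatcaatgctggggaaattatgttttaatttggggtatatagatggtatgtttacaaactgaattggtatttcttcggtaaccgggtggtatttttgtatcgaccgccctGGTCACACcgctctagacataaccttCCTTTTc
RpL40: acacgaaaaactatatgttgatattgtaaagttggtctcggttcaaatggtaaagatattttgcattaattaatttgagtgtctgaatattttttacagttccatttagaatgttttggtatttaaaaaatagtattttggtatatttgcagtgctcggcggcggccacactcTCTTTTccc
RpL21: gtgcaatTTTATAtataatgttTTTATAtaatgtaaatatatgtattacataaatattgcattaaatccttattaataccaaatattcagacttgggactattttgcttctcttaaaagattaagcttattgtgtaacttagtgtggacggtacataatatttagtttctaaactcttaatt

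Of the 8 promoters shown with a peak, 6 had a TCT spelling at this start site, at positions from -2 in RpL14 to 6 in RpL10Ab. A full DRE stood at position -92 in RpL28, at -43 in RpL34a and at -77 in RpL10Ab. RpL13A held the core TGACG at position -128 and its reverse at -122, separated by a single base. RpL7 held the core of Motif 1 at position -14, and RpL6, which had no peak, held it at -21. Among the promoters without a peak, RpL6 and RpL40 had a TCT spelling at the start site, at positions 6 and 4, and RpL10Aa and RpL21 showed none there.

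Peaks of the anti-GFP immunoprecipitation were listed at the promoters of nearly all members. No control without the tag was analysed here, so signal that does not come from the tagged protein was not assessed. A promoter peak, meaning a peak summit within 500 bp of any annotated start site of the gene, was listed for 45 of the 50 RpL genes (90.0%, 95% Wilson interval 78.6 to 95.7) and for 2825 of 13895 other protein-coding genes, the RpS genes included (20.3%, interval 19.7 to 21.0). Over all 13945 genes the share was 20.6%. These shares come from the optimal list, the strongest 5208 regions of the authors' pooled list, which the authors derived by reproducibility among the replicates. Single peaks need not recur in each replicate. Of the 5208, 2781 had a summit within 100 bp among the strongest 5208 regions of all 3 replicates.

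The replicates were then read one by one, each cut at its strongest 5208 regions, because each replicate list held 30000 regions with peaks and background together. In replicate 1 a region lay at 45 of the 50 RpL promoters (90.0%), against 19.8% of the other genes and 20.0% of all genes. In replicate 2 it lay at 41 (82.0%), against 21.0% of the other genes and 21.2% of all genes, and in replicate 4 at 44 (88.0%), against 19.9% of the other genes and 20.2% of all genes. The RpL share thus stood far above that of the other genes in every replicate. It averaged 86.7% ± 4.16 for RpL genes and 20.2% ± 0.642 for the other genes (SD, n = 3 replicates), a mean difference of 66.4 percentage points ± 4.8. An exact two-sided sign-flip permutation test over the 3 replicates gave p = 0.25, the smallest that 3 replicates allow. The lists hold no read counts, so the depth of the libraries is unknown, and the intervals cover the counting of genes only.

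Related gene groups gave a graded picture in the same list. A promoter peak was listed for 30 of 38 RpS genes, which encode the small cytosolic subunit (78.9%, interval 63.7 to 88.9). Of 24 listed genes for ribosome assembly and ribosomal RNA synthesis, such as the methyltransferase Fib and the export adaptor Nmd3, 12 had one (50%). Of 73 genes of the mitochondrial ribosome, 30 had one (41.1%). At 29 of these 30 the summit also had the start site of another protein-coding gene within 500 bp. The replicate means were 77.2% ± 6.08 for RpS genes, 52.8% ± 4.81 for the assembly genes and 36.1% ± 4.19 for the mitochondrial group (SD, n = 3). The RpL and RpS intervals overlap, and in replicate 2 the order was turned, with 82.0% of RpL genes and 84.2% of RpS genes.

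**Figure D1:**
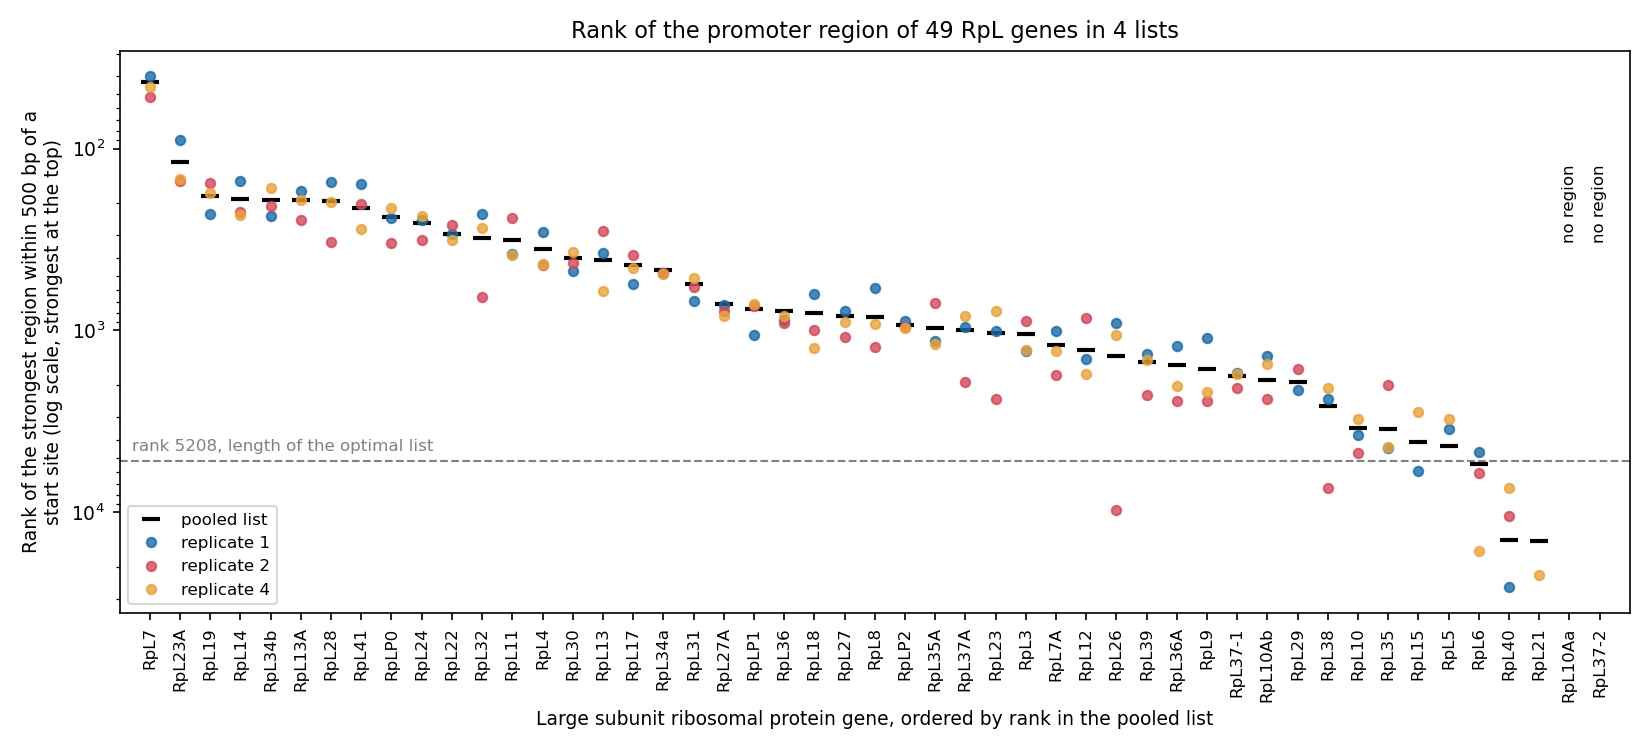
Rank by signal, on a log axis with the strongest at the top, of the strongest region within 500 bp of a start site of 49 RpL genes, with a point for each of replicates 1, 2 and 4 and a black bar for the authors' pooled list, whose strongest 5208 regions are the optimal list. The 44 genes shown with an optimal peak lie between ranks 43 and 4328, RpL6, RpL40 and RpL21 lie beyond rank 5208, and RpL10Aa and RpL37-2 have no region.

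Signal, a value from the authors' peak caller, ranks regions within a list and is on each list's own scale. In the optimal list the RpL promoter peaks ran from 1757 at RpL7 (rank 43) to 172 at RpL5 (rank 4328), with a median of 521, and those of the other genes had a median of 297. The median rank was 785 for the 45 RpL genes and 2033 for the 2825 other genes with a promoter peak. In replicates 1, 2 and 4 the median ranks were 727, 704 and 805 for RpL genes and 2017, 2399 and 1922 for other genes. The RpL median was thus nearer the top of every list than that of other genes. The mean difference was -1368 ± 296 ranks, RpL minus other genes (SD, n = 3, exact two-sided sign-flip permutation p = 0.25, the smallest possible). RpS genes had a median signal of 478 and a median rank of 916.5 in the optimal list. Their median ranks in replicates 1, 2 and 4 were 804, 1450 and 780, so in replicate 4 they stood above RpL genes. By rank, 19 of the 45 RpL genes stood among the strongest 500 peaks, 29 among the strongest 1000 and 40 among the strongest 2000. Of the 2825 other genes with a promoter peak, 418, 759 and 1392 stood within the same cuts.

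RpL7, an RNA-binding protein of the large subunit, had the strongest peak of the group (FBgn0005593, peak chr2L:10200870-10201224 of the dm6 build). Its signal was 601, 418 and 737 in replicates 1, 2 and 4, at ranks 40, 52 and 46 of those lists. Its summit lay 43 bp downstream of the start site, in the gene's own 5′ untranslated exon, and at 42, 44 and 43 bp in the replicates. It was the farthest downstream of all members and barely moved between replicates.

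RpL23A, which sits near the exit of the nascent peptide tunnel where the signal recognition particle docks, came second (peak chr3L:1668575-1668925, signal 1265, rank 119). Its replicate signals were 451, 308 and 510, and its summit lay at -71 bp from the start site, where negative values are upstream. It stood at ranks 90, 151 and 147 of the replicate lists, below RpL7 in each.

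RpL19, whose protein reaches across to the small subunit, had a signal of 1099 (rank 182) with the summit 5 bp upstream of the start site. RpL14, RpL34b, RpL13A, RpL28 and RpL41 lay close together, with signals of 1072, 1071, 1069, 1063 and 1021. RpL41 encodes one of the shortest proteins known, and its peak lay in an intron of the sodium channel gene NaCP60E, which is on the opposite strand. The replicate ranks of these 6 genes lay between 150 and 326, so their order among themselves is not settled by the replicates.

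The stalk proteins form the flexible arm that recruits the GTPases of translation. RpLP0, the base of the stalk, came next (peak chr3L:22075884-22076220, signal 965), with 312, 220 and 442 in replicates 1, 2 and 4. RpLP1 had a signal of 528, with 146, 148 and 233 in the replicates, and RpLP2 had 473, with 160, 128 and 193. RpLP0 was above both partners in every replicate, whereas RpLP1 was above RpLP2 in replicates 2 and 4 and below it in replicate 1.

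The weakest peaks were at RpL35 (signal 204), RpL15 (178) and RpL5 (172), the protein that brings 5S ribosomal RNA into the subunit. RpL35 was listed in every replicate, with summits at -39, -35 and -45 bp and signals of 56.5, 88.2 and 57.5 in replicates 1, 2 and 4. In replicate 4 a stronger region (signal 65.0) lay at -487 bp from the gene's outermost annotated start site, near the edge of the window. It counts as the gene's strongest region there. RpL15 was within the strongest 5208 regions of replicate 4 alone (signal 95.2). In replicate 1 it stood just beyond them at rank 5895, and replicate 2 listed no region there. RpL5 was found in replicates 1 and 4, at signals of 68.1 and 88.2, and not in replicate 2. RpL15 and RpL5 therefore rest on fewer replicates than most members.

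An optimal peak with a summit within 100 bp in all 3 replicates was present at 38 of the 45 RpL genes (84.4%), in 2 replicates at 6 and in 1 replicate at 1. For the other genes it was present in all 3 at 1673 of 2825 (59.2%). These shares were not compared at like rank, and the median rank was 785 for RpL genes and 2033 for other genes. Across members the strength of the region was ordered alike in the replicates, with Spearman's rho of 0.879 between replicates 1 and 2 (41 genes), 0.947 between 1 and 4 (43 genes) and 0.908 between 2 and 4 (40 genes). These coefficients describe genes measured in the same libraries and carry no test.

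The 5 members without an optimal promoter peak were of 2 kinds. RpL6, RpL40 and RpL21 had a weaker region at the promoter, and RpL10Aa and RpL37-2 had none within 500 bp in any list. RpL6 just missed the optimal list. Its pooled region stood at rank 5401 with a signal of 144, against 148 at the end of the optimal list, and the replicate ranks were 4642, 6077 and 16434. Replicate 1 therefore placed RpL6 within its strongest 5208 regions, and replicates 2 and 4 did not.

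RpL40 encodes a ribosomal protein made as a fusion with ubiquitin. Its promoter region ranked 14189 in the pooled list (signal 67.3) and 25835, 10456 and 7390 in replicates 1, 2 and 4. RpL21 had rank 14327 in the pooled list (signal 66.9) and rank 22143 in replicate 4, and replicates 1 and 2 listed no region at its promoter. The lists hold background regions at these ranks, so they do not separate weak binding at RpL40 and RpL21 from none.

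For RpL10Aa the nearest pooled summit lay 2620 bp from a start site, and for RpL37-2 it lay 8063 bp away. The 500 bp limit decided no member in the optimal list. The summit farthest from its start site among the 45 was 156 bp away, at RpL34a, and the nearest optimal summit of a member without a peak was 3484 bp away, at RpL6.

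Both genes without any region belong to paralog pairs, and in each pair the other gene had a peak. RpL10Ab had a signal of 309 at -42 bp, with 125, 80.7 and 110 in replicates 1, 2 and 4 at the summits within 100 bp of it, while RpL10Aa had no region. Their proteins are 63.9% identical over 216 aligned residues. RpL37-1 had a signal of 321 at -23 bp, with 109, 86.6 and 133 in the replicates, while RpL37-2 had no region. Their proteins are 75.3% identical over 89 residues.

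In the third pair both genes had a peak in every replicate, and their proteins are the most alike, 85.5% identical over 159 residues. RpL34b had signals of 317, 267 and 485 in replicates 1, 2 and 4, and RpL34a had 224, 183 and 282. RpL34b was the higher in each replicate. Their summits also differed, at -64 bp for RpL34b and -156 bp for RpL34a, and the replicates gave -65, -70 and -68 bp for RpL34b against -174, -107 and -141 bp for RpL34a.

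The 4 genes whose names end in -like stood outside the rule and are divergent relatives of members. RpLP0-like, a relative of the stalk protein RpLP0, had a weak optimal peak (signal 160, at -58 bp), found in 2 replicates. RpL7-like, RpL22-like and RpL24-like had none, and of these only RpL7-like had a region among the strongest 5208 of a replicate, in 1 of the 3. Their identity to RpLP0, RpL7, RpL22 and RpL24 was 28.7%, 35.9%, 50% and 35.5%. The namesakes RpLP0, RpL7, RpL22 and RpL24 all had peaks in every replicate, with signals of 965, 1757, 871 and 930 in the optimal list.

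The peaks of the RpL genes sat at the start site itself. Measured along the gene's strand to the nearest annotated start site, the median summit of the 45 RpL genes lay at -32 bp (quartiles -48 and -10, range -156 to 43), and that of the 2825 other genes with a promoter peak lay at -145 bp (quartiles -243 and -65). Summits no farther than 50 bp from a start site were found at 36 of 45 RpL genes (80.0%) and at 371 of 2825 other genes (13.1%). The summit was upstream in 37 of 45 RpL genes (82.2%, interval 68.7 to 90.7) and in 88.2% of the other genes.

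The replicates repeated this placement. The median summit was at -29, -25 and -35 bp in replicates 1, 2 and 4 for RpL genes, against -142, -115 and -155 bp for other genes. The RpL median averaged -29.7 bp ± 5.03 and that of other genes -138 bp ± 20.5 (SD, n = 3), a mean difference of 108 bp ± 15.8. The exact two-sided sign-flip permutation p was 0.25, the smallest that 3 replicates allow. Summits within 50 bp made up 80.0%, 92.7% and 63.6% of RpL promoter regions and 13.7%, 19.5% and 11.1% of the others. Replicate 4 had the fewest summits within 50 bp in both groups and replicate 2 the most, and the groups did not overlap.

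**Figure D2:**
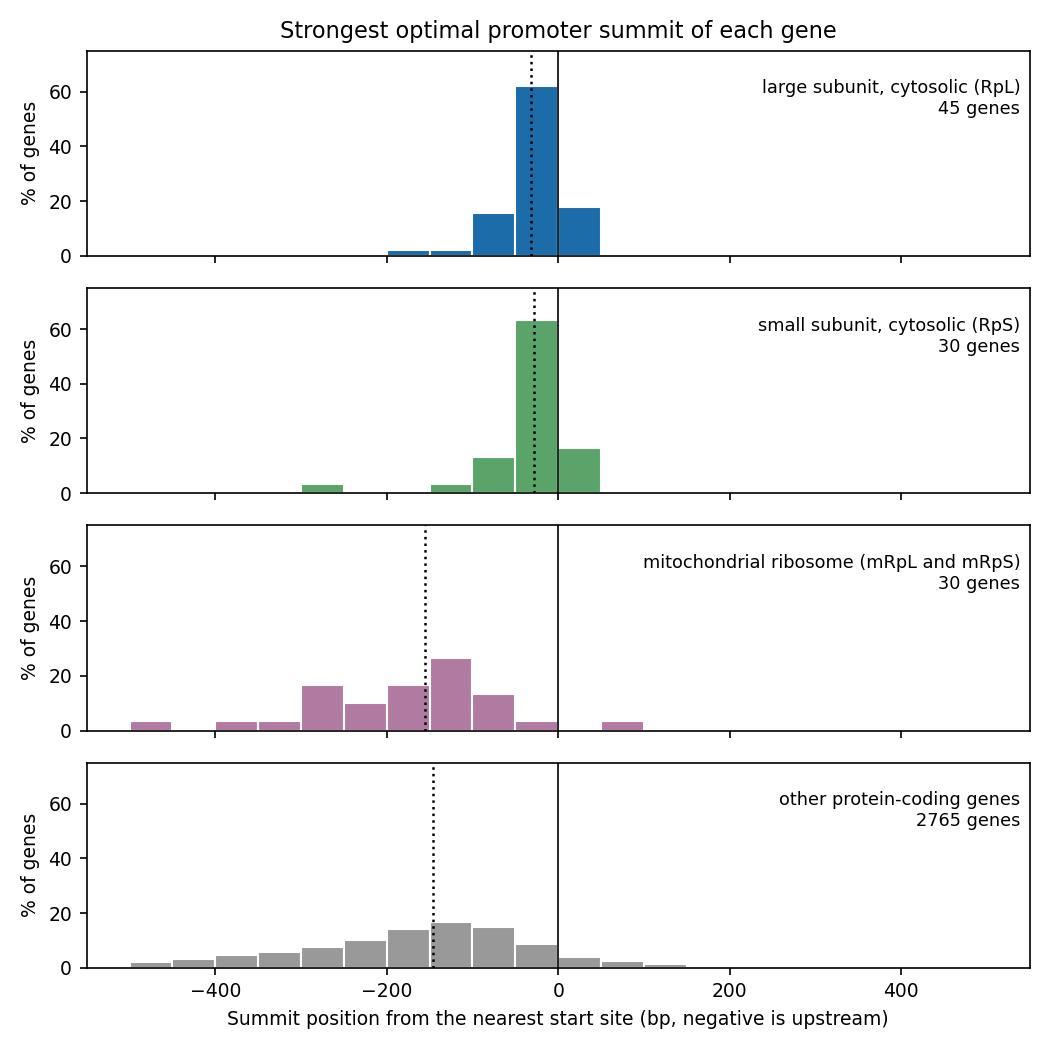
Distance of each gene's strongest optimal promoter summit from its nearest start site, as the percentage of genes in bins of 50 bp, for RpL, RpS, mitochondrial ribosome and other protein-coding genes. The dotted lines mark medians of -32 bp for RpL, -28.5 bp for RpS and -155.5 bp for mitochondrial ribosome genes.

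RpS genes shared the placement, with a median at -28.5 bp over 30 genes and 80.0% of summits within 50 bp. The genes of the mitochondrial ribosome did not share it, with a median at -155.5 bp and 3.33% within 50 bp. At 29 of these 30 genes (96.7%) the summit also had the start site of another protein-coding gene within 500 bp, against 44.4% of RpL genes. The position of these peaks can therefore not be assigned to the mitochondrial ribosome gene alone. Replicate medians averaged -29.7 bp for RpL, -23.8 bp for RpS and -164 bp for mitochondrial ribosome genes.

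The offset of RpL genes kept its size in subsets of the genes. Among peaks not shared with another gene it was -27 bp for 25 RpL genes and -152 bp for 1220 other genes. Among genes with 1 annotated start site it was -37 bp for 22 RpL genes and -150 bp for 1571 other genes. Among the strongest 1000 peaks it was -33 bp for 29 RpL genes and -159 bp for 759 other genes, and beyond rank 1000 it was -25 bp for 16 RpL genes and -137 bp for 2066 other genes.

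Single members departed from this. RpL34a (-156 bp), RpL23 (-132 bp) and RpL26 (-100 bp) had the summits farthest upstream, and RpL7 (43 bp), RpL37A (19 bp) and RpL36A (16 bp) those farthest downstream. RpL23, a protein of the subunit interface, had its summit at -46, -11 and -151 bp in replicates 1, 2 and 4. RpL26 had -91 bp in replicate 1 and -120 bp in replicate 4 from the start site nearest to the optimal summit, with no region among the strongest 5208 of replicate 2. The replicate 4 summit is counted at 109 bp elsewhere, because another annotated start site of RpL26 lies nearer to it. RpL34a was upstream of -100 bp in every replicate, while the summits of RpL23 spanned 140 bp over the replicates.

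**Figure D3:**
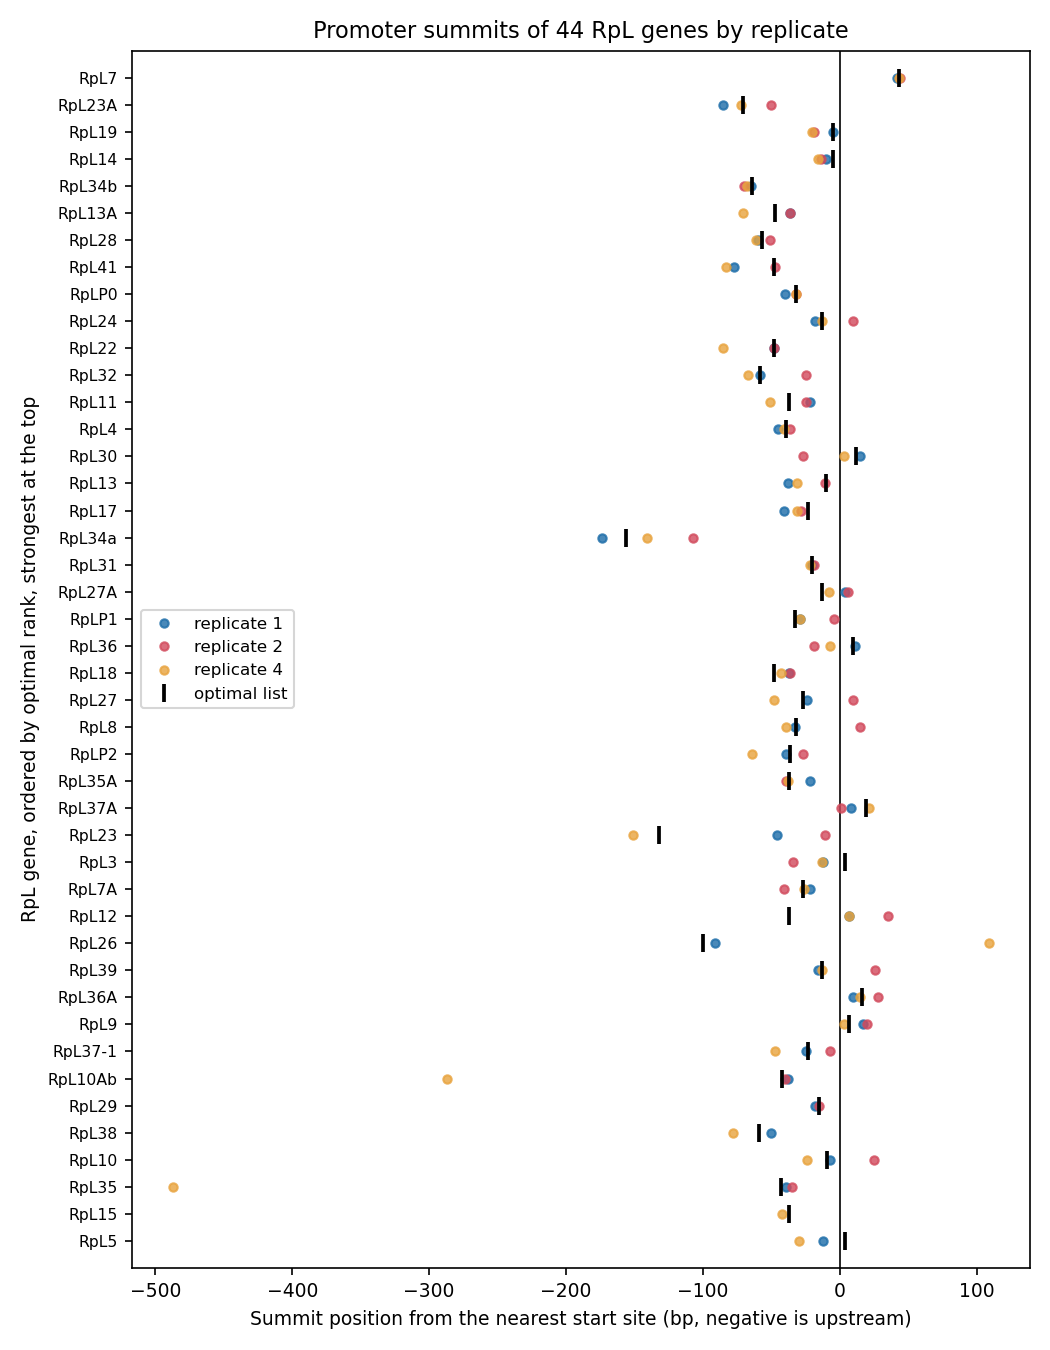
Summit position of the strongest promoter region of 44 RpL genes with an optimal peak in bp from the nearest start site, with a point for each of replicates 1, 2 and 4 and a bar for the optimal list. Most points lie within 50 bp of the start site, and the replicate 4 points of RpL35 (-487 bp) and RpL10Ab (-287 bp) stand farthest out, each beside a weaker summit of that replicate nearer to the start site.

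For the 38 RpL genes matched in all 3 replicates the summits spanned a median of 32 bp (range 2 to 68), against a median of 41 bp for the 1673 other genes. These spans were not compared at like rank. Of the 45 optimal summits, 30 lay between genes, 12 in the gene's own 5′ untranslated exon, 2 in an intron of the gene (RpL26 and RpL35) and 1 in an intron of another gene (RpL41). No member had an optimal summit inside the gene farther than 500 bp from its start sites. A second promoter peak was listed for 8 members, among them RpL34b, RpL28, RpL32 and RpL10Ab. Locations and second peaks were counted for members only, so these counts carry no comparison with other genes. At RpL10Ab the strongest summit of replicate 4 lay farther out, at -287 bp, and a weaker one of the same replicate lay at -82 bp.

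The width of the listed peaks was compared among peaks of rank up to 1000 and among those beyond it. In the optimal list 66.4% of peaks had 1 common width of 456 bp, which was the width at 6 of 45 RpL genes (13.3%) and at 62.8% of the other genes with a promoter peak. Those 6 were RpL26, RpL38, RpL10, RpL35, RpL15 and RpL5. Among peaks of rank up to 1000 the median width was 317 bp for RpL genes and 307 bp for other genes, so the strongest members were not narrower. Beyond rank 1000 it was 248 bp for 16 RpL genes, 456 bp for 14 RpS genes and 456 bp for 2066 other genes. Rank was not matched within this part, where the median signal was 330 for RpL genes and 237 for other genes. Over all ranks the median was 306 bp for RpL genes, 307 bp for RpS genes and 456 bp for genes other than RpL. The sources used here do not say why so many peaks have the same width.

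A smaller share of members than of other genes had a peak shared with a neighbour at this window, and RpS genes resembled the members. The strongest summit had the start site of another protein-coding gene within 500 bp at 20 of 45 RpL genes (44.4%, interval 30.9 to 58.8) and at 1605 of 2825 other genes with a promoter peak (56.8%). The shares in replicates 1, 2 and 4 were 42.2%, 43.9% and 47.7% for RpL genes and 55.6%, 53.7% and 57.3% for other genes. The RpL share was lower in each replicate, with a mean difference of -10.9 points ± 2.14 (SD, n = 3, exact two-sided sign-flip permutation p = 0.25, the smallest possible). This order depended on the window. Within 250 bp the shares were 20.0% for RpL genes and 45.3% for other genes, and within 1000 bp they were 66.7% and 59.7%. The count starts from the summit, which lay at a median of -145 bp in other genes and -32 bp in RpL genes. Genes were counted rather than peaks, so partners at 1 shared peak can each enter the count. The part of these choices in the order was not tested.

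The 20 members had 21 partner genes, since RpL13A had both Dph4 and Spec2. All 21 had a start site head to head with that of the member, on the opposite strand, and 0 of them were ribosomal protein genes. At RpL41 this was an internal start site of NaCP60E, since the summit lay in an intron of that gene. The summit was nearer to the RpL start site at 19 of the 20 members. RpL7 and Ripalpha start 30 bp apart, and their summit lay 43 bp inside RpL7 and at -73 bp from Ripalpha. RpL13 and Dref, the gene of the factor that binds the DRE, start 84 bp apart, with the summit at -10 bp from RpL13 and -74 bp from Dref.

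RpL14 shared its peak with Nelf-E, a subunit of the complex that pauses RNA polymerase II (-5 bp from RpL14, -122 bp from Nelf-E). RpL28 shared its peak with eIF1, a factor in start codon selection (-57 and -324 bp). RpL29 shared its peak with Sgf29, a subunit of the SAGA coactivator (-15 and -107 bp), and RpL36 with Mybbp1A, a nucleolar protein (10 and -300 bp). The exception was RpL34a, where the summit lay at -156 bp from RpL34a and at -73 bp from Trmt61, a tRNA methyltransferase subunit.

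The share with a peak was also counted by whether another gene starts close by, in either orientation. With a start site of another protein-coding gene within 1000 bp, 30 of 31 RpL genes (96.8%) and 31.9% of 5954 other genes had a promoter peak. Without one, 15 of 19 RpL genes (78.9%) and 11.7% of 7941 other genes had one. In both classes the RpL share was above that of other genes. The median signal was 824 at the 20 RpL genes with a shared peak and 409 at the 25 without, against 303 and 283 for other genes; this difference among members was not tested.

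Many RpL genes carry small nucleolar RNAs, which guide the modification of ribosomal RNA, in their introns. An annotated small nucleolar RNA lay inside 16 of 50 RpL genes (32.0%, 33 such RNAs in all) and inside 68 of the 13895 other genes (0.489%). A promoter peak was listed for all 16 RpL hosts and for 29 of the 34 other RpL genes (85.3%). Among genes other than RpL, the RpS genes included, it was listed for 54.4% of the 68 hosts and 20.2% of the 13827 others. The hosts among members included RpL23A with 4, RpL28 with 5, RpL17 with 4 and RpL3 with 4 small nucleolar RNAs. The median signal was 727 at RpL hosts and 503 at the other RpL genes with a peak. RpS genes had all 13 hosts with a peak as well (34.2% of RpS genes are hosts), but their median signals stood the other way, at 443 for hosts and 499 for the others.

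The TCT initiator was counted at the start sites of the members, since the family is known for it. One of its 4 spellings lay within 5 bp of an annotated start site in 37 of 50 RpL genes (74.0%), 65.8% of RpS genes and 1.94% of the 13895 genes other than RpL. Of the 37 RpL genes with the motif 33 had a peak (89.2%), and of the 13 without it 12 had a peak (92.3%). At the outermost start site alone it lay in 24 of 50 RpL genes (48.0%), 34.2% of RpS genes and 1.3% of the genes other than RpL, and 21 of the 24 (87.5%) and 24 of the 26 other RpL genes (92.3%) had a peak. Among genes of neither subunit a peak was listed for 71 of 245 genes with the motif (29.0%) and for 20.0% of those without it.

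The summits of RpL genes lay near the start site with and without this initiator. Among genes with the motif at a start site the median summit was at -32 bp for 33 RpL genes and at -147 bp for 71 genes of neither subunit. Among genes without it the medians were -30 bp for 12 RpL genes and -146 bp for 2724 genes of neither subunit. The medians of RpL genes thus differed little from each other, and both lay far from those of genes of neither subunit.

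**Figure D4:**
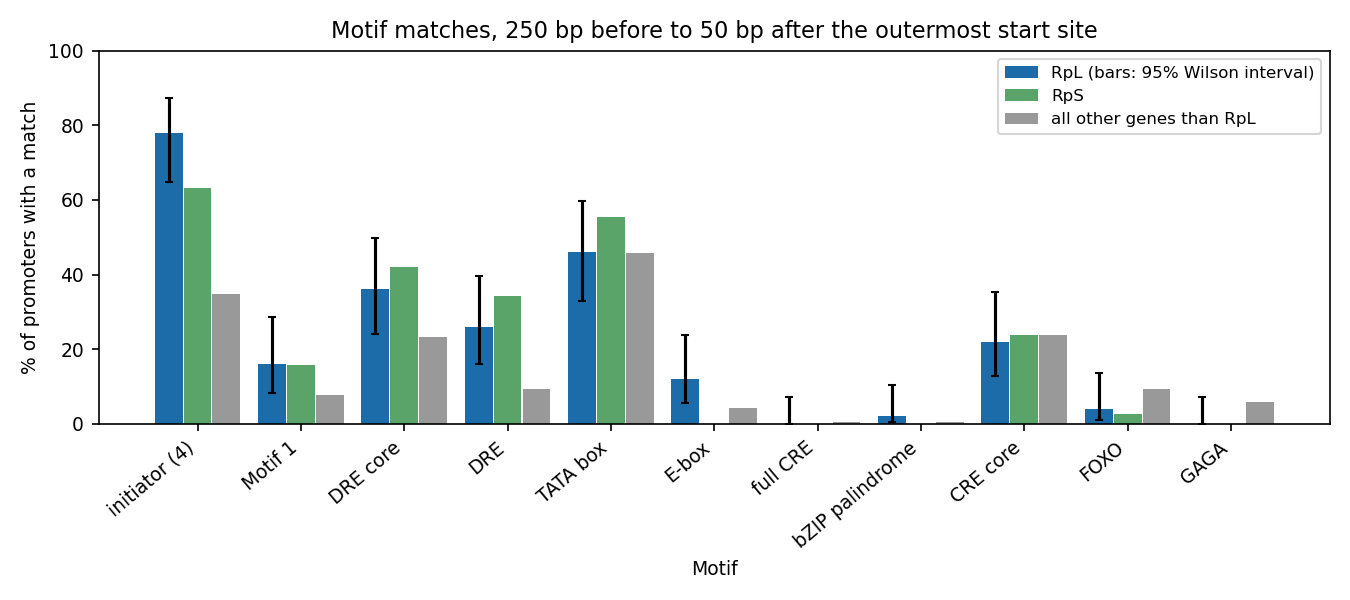
Percentage of promoters, from 250 bp before to 50 bp after the start site, that hold an exact match to each motif. Blue bars are 50 RpL genes with 95% Wilson intervals, green bars are RpS genes and grey bars all genes other than RpL. The initiator, counted in its 4 spellings anywhere in the window, was in 78.0% of RpL and 34.8% of other promoters, and the full DRE in 26.0% and 9.3%.

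Other motifs were counted in windows from 250 bp before to 50 bp after the outermost start site, in RpL promoters and in the promoters of all other protein-coding genes. The full DRE was in 13 of 50 RpL promoters (26.0%, interval 15.9 to 39.6) and in 9.3% of the others. The core of Motif 1 was in 8 (16.0%, interval 8.34 to 28.5) and in 7.67% of the others. RpS promoters, which are among the others, held the full DRE in 34.2% and the core of Motif 1 in 15.8%. The E-box CACGTG was in 6 RpL promoters (12%, interval 5.62 to 23.8), namely RpL7, RpL34b, RpL24, RpL11, RpL29 and RpL6. It was in 4.17% of the others and in 0.0% of RpS promoters. These matches are letters in a window and not measured sites.

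Palindromic bZIP sites were rare. TGACGTCA was in 0 of 50 RpL promoters, where a count of 0 allows a share of up to 6.0%, and in 0.439% of the others. TTACGTAA was in 1 (RpL37-1, 2.0%) and in 0.446% of the others. The shorter core TGACG, which TGACGTCA contains, was in 22.0% of RpL promoters and 23.8% of the others. The FOXO site TGTTTAC was in 4.0% and 9.21%. The repeat GAGAGAG was in 0 RpL promoters, with the same limit of 6.0%, and in 5.89% of the others. RpS promoters held TGACG in 23.7%, TGTTTAC in 2.63% and GAGAGAG in 0.0%.

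In the 101 bp around the optimal summit the full DRE was in 10 of 45 RpL windows (22.2%) and in 3.4% of the windows of other genes, with 21.5% ± 2.62 and 3.57% ± 0.524 over the replicates (SD, n = 3). Motif 1 was in 11.1% of RpL windows and 2.05% of the others, and the E-box in 8.89% and 0.956%. Of 30 RpS windows, which are among the others, 5 held the full DRE (16.7%), 3 Motif 1, 3 the TATA box and 0 the E-box. Summits lay within 50 bp of a start site at 80.0% of RpL genes and 13.1% of other genes. The windows therefore often cover different parts of the promoter, and the effect of this on the motif shares was not tested. The TATA box TATAAA was in 8.89% of RpL windows and in 22.9% of the others. In promoters it was in 46.0% of RpL genes and 45.8% of others over the longer window. Over the window from 100 bp before to 50 bp after the start site it was in 10% of RpL genes and 24.0% of others.

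The summits of RpL genes, like those of RpS genes, were richer in G and C than those of other genes. The 101 bp around the summit averaged 46.4%, 46.4% and 45.4% G and C in replicates 1, 2 and 4 for RpL genes, against 34.4%, 37.7% and 33.6% for other genes with a promoter region. The mean difference was 10.8 percentage points ± 1.85 (SD, n = 3, exact two-sided sign-flip permutation p = 0.25, the smallest possible). RpS genes had 47.2%, 47.4% and 45.9% in the replicates, close to the RpL values. G and C content moves with position in the promoter. In RpL promoters it averaged 46.9% in the last 50 bp before the start site and 30.2% from -200 to -151 bp, and in other promoters 43.1% and 35.9%. Among summits within 50 bp of a start site the difference was 3.4 points ± 1.68, and its part in the placement of the summits was not tested.

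**Figure D5:**
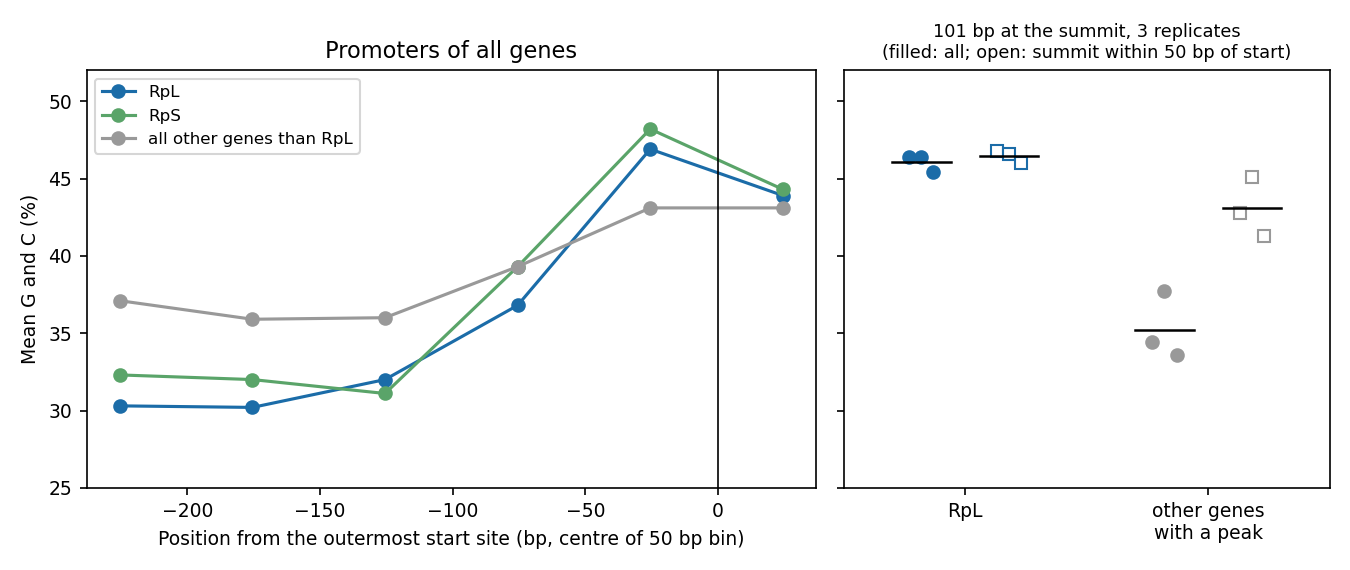
Left, mean percentage of G and C in bins of 50 bp by distance from the outermost start site in bp, for RpL, RpS and all genes other than RpL; right, mean percentage of G and C in the 101 bp at the summit in each of the 3 replicates, filled for all promoter summits and open for those within 50 bp of a start site, with the line at the mean. The filled points lie at 45.4% to 46.4% for RpL genes and 33.6% to 37.7% for other genes, and the open points lie closer together.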

How the data were processed

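Peak lists on the dm6 build were used for 3 biological replicates of anti-GFP ChIP-seq in whole embryos, with chromatin sonicated to 200 to 800 bp, per the labels. The authors deposited a list of 30000 regions for each replicate, a pooled list and an optimal list of 5208 peaks, which per the deposited inventories was derived from the replicate and pooled lists by irreproducible discovery rate. The signal column holds a value for each region from the authors' caller, with no stated normalization, so signal was compared within a list only. The sources used here do not give the aligner, the caller or the threshold of the rate, and the depth of each replicate is unknown. The replicates came from separate biosamples of 1 line.

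The summit was the position of a region. Genes and start sites came from Ensembl release 115 for dm6, and sequence from the RefSeq Release 6 assembly. Each gene was given its strongest summit within 500 bp of a start site. Summits within 100 bp were matched. Shares carry 95% Wilson intervals, which cover counting only, and where none was counted the limit is that of 3 counts. Replicates were compared by an exact two-sided sign-flip permutation test. Motifs were exact matches, and all but the TCT spellings were sought on both strands. Protein identity came from alignments of translated annotated coding sequences. The genes named were the 10 of highest signal, those without a peak, paralogs, stalk genes and RpL40, the 3 farthest upstream and downstream, the 3 weakest, those nearest the 500 bp limit and those with a shared peak. Genes named for a motif, a peak width, a location, a second peak or small nucleolar RNAs, and RpL24 and RpL22 beside their -like relatives, stood outside that rule or were chosen after their values were seen. An item withheld for evaluation is not reported here by itself and is left out of the plots by gene, but stays in all counts and medians. The members, lists and tests were chosen with earlier results of these data known. The alternatives were other promoter widths, list lengths, start sites, windows and replicates left out. Python 3.11.15, numpy 2.4.6, pandas 2.3.3, scipy 1.17.1, Biopython 1.88 and matplotlib 3.10.9 were used, and the counting and the permutation test were tested on simulated data. Expression, controls and dm3 lists were not analysed here.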

Additional observations from a re-analysis of the deposited data

How the results depend on the processing

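Of 48 alternatives, 8 moved the RpL value beyond its counting interval or replicate spread, and 40 kept it within them or, for tested differences, kept its sign. Not every one of the 40 was close, since in the shorter promoter window TGACG was in 14% and TGTTTAC in 2.0% of RpL promoters. The difference in G and C was 3.39 points among summits within 50 bp of a start site. Among optimal peaks matched in all 3 replicates the share with a promoter peak was 78.0% for RpL genes and 12.2% for other genes, and among those matched in replicates 1 and 4, chosen after seeing the data, it was 86.0% and 15.5%. The mean replicate share of RpL genes was 72.7% at the strongest 2000 regions (9.65% of other genes) and 92.7% with all regions (45.9% of other genes). With the outermost start site alone the median RpL offset was -23 bp. The shared-peak share was 20.0% of RpL genes within 250 bp and 66.7% within 1000 bp, where it stood above that of other genes (59.7%). In the shorter promoter window TATAAA was in 10% of RpL promoters and TTACGTAA in 0.0%. Leaving out each replicate in turn gave mean RpL shares of 85.0% to 89.0%, differences of 64.5 to 69.1 points, mean offsets of -32 to -27 bp, offset differences of 102 to 117 bp and differences in G and C of 10.3 to 11.9 points. In windows of 201 bp, chosen after seeing the data, the difference in G and C was 6.62 points, and in windows of 51 bp 13.0 points. The cause of these shifts was not tested. No paired analysis was possible because there is 1 group of samples and thus no second group to pair it with, and each difference between RpL and other genes was taken within a replicate. The list gives no depth, 3 replicates cannot give a p under 0.25, and a member absent from the optimal list may still be bound below its limit.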

Other observations

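Members near the centromeric ends of their arms had a lower median signal, a grouping chosen after the values were seen and not tested. Of 8 RpL genes within 6 Mb of such an end, 7 had an optimal promoter peak, with a median signal of 252 (range 172 to 1069). Of the 42 RpL genes beyond 6 Mb, 38 had a peak, with a median signal of 536 (range 204 to 1757). Among other genes the medians were 298 within 6 Mb and 295 beyond it. RpLP0 (signal 965) lies just past the limit at 6.03 Mb, and with a limit of 7 Mb the medians were 360.0 for 8 members with a peak within it and 528 for 37 beyond it, a smaller gap. The weakest members, RpL5 and RpL15, lie 0.979 and 0.842 Mb from the end, RpL21, which had no optimal peak, lies 1.27 Mb from it, and RpL13A (signal 1069, 5.63 Mb) was the strongest of the 8.

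Words of 8 letters were counted in the 101 bp at RpL summits. Among those in at least 6 windows, 5 were kept for their share against other genes, and the most frequent of these was AGTGTGGC or its reverse complement GCCACACT. It was in 8 of 45 RpL windows (17.8%), in 2 of 30 RpS windows (6.67%) and in 15 of 2795 windows of genes of neither subunit (0.537%). The word CCACACTA, which overlaps it, was in 6 RpL windows (13.3%), 0 RpS windows and 8 windows of genes of neither subunit (0.286%). The words were picked on the RpL windows, so their shares there are a description, and 2 RpS windows are too few to say more. RpL genes were also shorter than other genes, with a median of 1325.5 bp against 2171 bp.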
